A study of Mus musculus with 4 samples.

Results

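The genes of cholesterol synthesis, sterol sensing, intracellular sterol transport and efflux were followed in fetal brown adipose tissue (BAT) from mice whose mothers drank fructose water during pregnancy. The set was a list of gene names and held 28 genes, all of which were found among the 22298 genes of the count table. By role, 8 encode enzymes from acetyl-CoA to the isoprenoid diphosphates, 11 encode enzymes from squalene synthesis to cholesterol, 3 encode the proteins that hold or escort the SREBP transcription factors, and 6 encode proteins of sterol transport, esterification and efflux. All 28 passed the filter on low counts and were tested.

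The samples were BAT of C57BL/6 fetuses (C57BL/6J in the study's methods) at E18.5, the last day of gestation by the labels, and labelled male. Their dams were given tap water or water with 20% (w/v) fructose through pregnancy up to collection, and 2 RNA-seq libraries were made for each maternal group, called control and fructose here. The sources used here do not state how many fetuses or litters went into a library, so p-values measure only the spread between these libraries. Strain, tissue and age were shared by all 4 libraries.

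Several features of the libraries touched the genes described here. Totals ran from 18542897 to 23645147 counts, and the lowest count of any of the 28 genes in a library was 54. The mitochondrial share was 5.89% and 6.49% of counts for control and 10.8% and 11.2% for fructose. Summed counts of 4 genes of the Y chromosome (Ddx3y, Eif2s3y, Uty and Kdm5d) were 422 and 390 for control but 0 in both fructose libraries, which goes against the male label of the latter. Maternal diet and the sex that these genes read therefore cannot be told apart in any value given here, and Nsdhl and Ebp of the sterol set are X-linked. Brown adipocyte markers were abundant in every library, with a sum of 21710 to 25430 CPM, which are counts scaled to a common library size with edgeR's TMM factors. At an edgeR adjusted p under 0.05, 1 of the 10 was higher in the fructose libraries (Elovl3) and 2 were lower (Adipoq and Cox8b), named here after their values were seen. The sum of 7 erythroid markers was 19200 and 15290 CPM for control and 11770 and 12140 CPM for fructose, with 5 of the 7 lower by the same test. The sum of 8 skeletal muscle markers was 279 and 359 CPM in the control libraries against 784 and 582 CPM in the fructose libraries, with 7 of the 8 higher at an edgeR adjusted p under 0.05. The part of muscle, blood or adipocyte content in the sterol gene values was not tested. Since this is whole tissue, fewer cells of a type and less RNA per cell cannot be told apart.

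Cells build cholesterol from acetyl-CoA through mevalonate, the isoprenoid diphosphates, squalene and lanosterol. When membranes of the endoplasmic reticulum are poor in sterol, SCAP escorts the SREBP precursors to the Golgi, where they are cut and released to switch on the genes of synthesis, while INSIG proteins hold the complex back when sterol is plentiful. Oxysterols activate the LXR receptors, which switch on the efflux pumps ABCA1 and ABCG1, and NPC1 with NPC2 hands lysosomal cholesterol to the rest of the cell.

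To show what these genes have in common outside the counts, their proximal promoters were examined for 4 short motifs on either strand. RefSeq promoters of 300 bases, 250 before and 50 after a start, were used for 22 of the 28 genes, all but Fdps, Fdft1, Sqle, Stard4, Abcg1 and Npc1. The CCAAT box, the site of the factor NF-Y that works with SREBP at many sterol promoters, was present as CCAAT in 19 of the 22 genes (86.4%) and in 42.1% of all protein-coding genes with a promoter. Among synthesis enzymes it was present in 15 of 16 genes (93.8%), Acat2 being the exception. The GC box, a site of the factor Sp1, was searched as GGGCGG and found in 20 of 22 genes (90.9%), against 51.0% of protein-coding genes. An E-box of the letters CACGTG was found in 6 of 22 genes (27.3%), against 9.18%. The strict sterol regulatory element TCACNCCAC was found in Hmgcs1 alone (4.55%), against 1.41%. Matches of different motifs were counted separately, whether or not they overlapped, and each is a run of letters and not a measured binding site. The 16495 protein-coding genes include some that did not pass the filter on low counts, whereas all 28 genes of the set did. No share among tested genes alone was computed.

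The 180 bases just upstream of the most upstream annotated start are shown for 6 genes, picked after values were seen. All 6 were higher in the fructose libraries at an edgeR adjusted p under 0.05. Of them, only Lss and Abca1 stayed under 0.05 in all 13 alternative settings described below. Together the 6 carry every kind of match searched. They are written from 5′ to 3′ on the gene's own strand in GRCm38.p6. Capitals mark the CCAAT boxes, which on the opposite strand read ATTGG, the E-boxes and, in Hmgcs1, the sterol regulatory element. The stretches are chr13:119690171-119690350 on the plus strand for Hmgcs1, chr10:76531408-76531587 on the plus strand for Lss, chrX:72918341-72918520 on the plus strand for Nsdhl, chr9:42264301-42264480 on the minus strand for Sc5d, chr5:28071183-28071362 on the plus strand for Insig1 and chr4:53159896-53160075 on the minus strand for Abca1.
Hmgcs1: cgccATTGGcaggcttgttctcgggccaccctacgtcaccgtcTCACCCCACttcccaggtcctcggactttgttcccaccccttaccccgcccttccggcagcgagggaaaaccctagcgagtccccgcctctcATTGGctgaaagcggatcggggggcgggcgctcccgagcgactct
Lss: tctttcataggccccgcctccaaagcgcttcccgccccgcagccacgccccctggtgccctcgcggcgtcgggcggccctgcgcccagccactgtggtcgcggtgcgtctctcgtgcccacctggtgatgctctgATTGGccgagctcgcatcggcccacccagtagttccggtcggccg
Nsdhl: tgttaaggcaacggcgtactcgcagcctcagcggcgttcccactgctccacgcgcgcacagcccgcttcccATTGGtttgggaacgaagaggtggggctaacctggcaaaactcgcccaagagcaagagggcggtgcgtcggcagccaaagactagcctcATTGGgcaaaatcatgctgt
Sc5d: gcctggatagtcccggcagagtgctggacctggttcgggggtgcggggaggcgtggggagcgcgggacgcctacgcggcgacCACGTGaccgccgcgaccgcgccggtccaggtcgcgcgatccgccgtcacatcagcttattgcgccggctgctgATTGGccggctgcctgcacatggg
Insig1: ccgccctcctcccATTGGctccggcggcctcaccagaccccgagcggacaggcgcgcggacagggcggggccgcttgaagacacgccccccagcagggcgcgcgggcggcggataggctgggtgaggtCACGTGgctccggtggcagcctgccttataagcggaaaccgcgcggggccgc
Abca1: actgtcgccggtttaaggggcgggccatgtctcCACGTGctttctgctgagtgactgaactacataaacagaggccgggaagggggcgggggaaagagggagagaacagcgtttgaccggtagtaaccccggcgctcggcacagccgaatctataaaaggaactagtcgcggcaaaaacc
In Hmgcs1 the sterol regulatory element lay at positions -137 to -129 from the start, between CCAAT boxes at -176 to -172 and -45 to -41. The CCAAT box of Lss also lay at -45 to -41. Sc5d and Insig1 each held an E-box and a CCAAT box in the stretch, whereas Abca1 held an E-box at -147 to -142 and no CCAAT box.

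First, the set was compared between the groups as a whole. Higher and lower refer to the fructose libraries against the control libraries, and a gene was called when the Benjamini-Hochberg adjusted p of edgeR's quasi-likelihood test over all 12888 tested genes was under 0.05. Log2 fold changes are fructose over control with 2 libraries a group, and SE is their standard error from that fit. Of the 28 genes, 10 were called higher (35.7%), where 15.5% of all tested genes were called higher. Only Scap and Abcg1 were called lower (7.14%), where 10.7% of all tested genes were. The median log2 fold change of the 28 genes was 0.25, against 0.0025 over all tested genes, and single values ran from -0.35 for Abcg1 to 1.41 for Abca1. Both fructose libraries lay above both control libraries for 15 genes and below them for 6, and the libraries overlapped for 7. Over all tested genes, 33.4% lay wholly above and 31.6% wholly below.

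The study selected genes by an unadjusted p under 0.05 with a fold change over 1.3. Applied to the edgeR fit, these thresholds took 12 of the 28 genes as higher (42.9%) and 0 as lower, where 17.6% of all tested genes passed as higher and 6.18% as lower. Hsd17b7 and Soat1 passed these thresholds and missed the adjusted one, while Scap and Abcg1 passed the adjusted threshold with smaller folds.

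**Figure D1:**
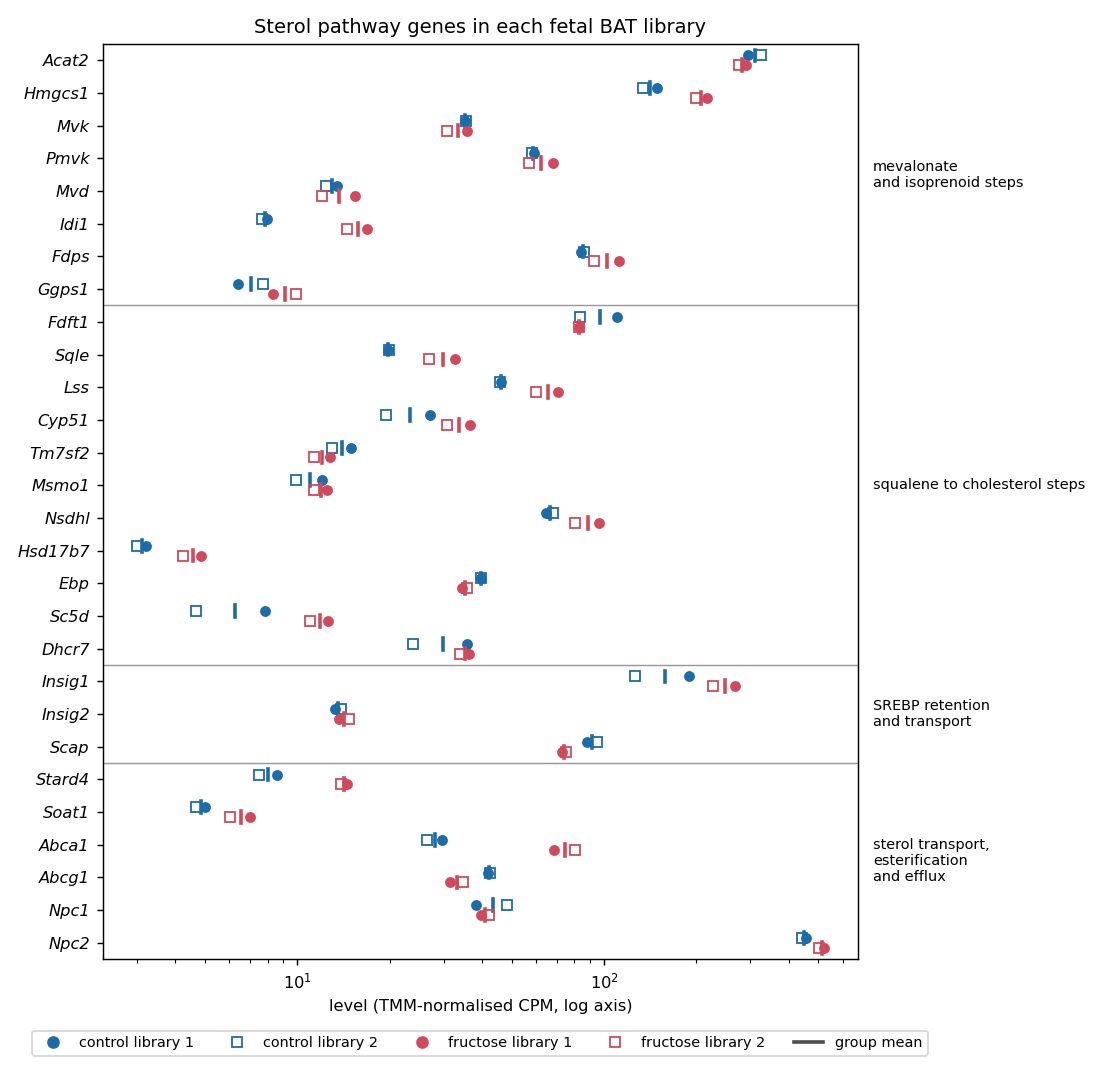
Level of each of the 28 sterol genes in each of the 4 libraries, as TMM-normalised CPM on a log axis, with circles and squares for libraries 1 and 2 of each group and bars for group means, genes ordered by role. Abca1, Idi1 and Stard4 show fructose libraries well above the control libraries, while Ebp, Scap and Abcg1 show them below. For Fdft1, only control library 1 stands apart.

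The levels of the set covered a wide range. Divided by transcript length, the highest control means were 138 CPM per kb for Acat2 and 136 CPM per kb for Npc2, and the lowest were 0.578 for Soat1 and 0.674 for Hsd17b7. Among the enzymes of the sterol branch itself, Nsdhl (30.7 CPM per kb), Fdft1 (26.2) and Ebp (22.8) had the highest control levels.

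In the mevalonate and isoprenoid steps, 2 of 8 genes were called higher and 0 lower, where 15.5% and 10.7% of all tested genes were, and the median log2 fold change was 0.17. Hmgcs1 (ENSMUSG00000093930, chr13:119690379-119708260) encodes the cytosolic synthase that makes HMG-CoA (gene positions are those of GENCODE vM21 on GRCm38). Its level was 149.1 and 133.9 CPM in the control libraries against 216.4 and 199.1 CPM in the fructose libraries. Both fructose libraries lay above both control libraries, and Hmgcs1 rose 1.47-fold (log2 fold change 0.55, SE 0.088, edgeR adjusted p = 0.0015). Idi1 (ENSMUSG00000058258, chr13:8885501-8892451) encodes the isomerase that turns isopentenyl diphosphate into the starter unit of isoprenoid chains. It had 7.97 and 7.65 CPM in the control libraries against 16.9 and 14.5 CPM in the fructose libraries. Without overlap, Idi1 rose 2.01-fold (log2 fold change 1.01, SE 0.15, edgeR adjusted p = 0.0011), the largest fold change of the synthesis enzymes in this fit.

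The steps between these enzymes did not pass the test. The kinases Mvk and Pmvk and the decarboxylase Mvd, which carry mevalonate to isopentenyl diphosphate, had log2 fold changes of -0.085, 0.087 and 0.082, and the libraries of the 2 groups overlapped for all of them. Fdps, the farnesyl diphosphate synthase, had 84.4 and 86.2 CPM in the control libraries against 111.7 and 92.8 CPM in the fructose libraries. The fructose libraries were both above, but differed between themselves by more than the lower one differed from control, and the log2 fold change was 0.26 with an adjusted p of 0.065 (edgeR). It ran from 0.12 without fructose library 1 to 0.39 without fructose library 2, and Fdps was called without control library 2 (edgeR adjusted p = 0.031) and without fructose library 2 (edgeR adjusted p = 0.025). Ggps1, which makes the geranylgeranyl diphosphate used for protein prenylation, had a log2 fold change of 0.37 (SE 0.18, edgeR adjusted p = 0.14). Acat2, the thiolase of the first step, had a log2 fold change of -0.13 (SE 0.086, edgeR adjusted p = 0.27).

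Next, the steps from squalene to cholesterol were compared. Here 5 of 11 genes were called higher and 0 lower, where 15.5% and 10.7% of all tested genes were. The median log2 fold change was 0.41. Sqle (ENSMUSG00000022351, chr15:59315077-59331192), the squalene epoxidase and a rate-controlling step, had 19.7 and 19.9 CPM in the control libraries against 32.7 and 26.9 CPM in the fructose libraries. The control libraries were nearly equal, and Sqle rose 1.5-fold (log2 fold change 0.59, SE 0.12, edgeR adjusted p = 0.0051). Lss (ENSMUSG00000033105, chr10:76531588-76557138), which closes the ring to form lanosterol, had 46.3 and 45.8 CPM against 71.0 and 60.1 CPM. It rose 1.42-fold with no overlap (log2 fold change 0.51, SE 0.098, edgeR adjusted p = 0.0037).

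Of the enzymes that trim lanosterol, Cyp51 (ENSMUSG00000001467, chr5:4081145-4104746), a demethylase, had 27.0 and 19.5 CPM in the control libraries against 36.5 and 30.7 CPM in the fructose libraries. Its log2 fold change was 0.53 (SE 0.15, edgeR adjusted p = 0.020), and the highest control library lay close to the lowest fructose library. Without control library 2 it was 0.31 with an adjusted p of 0.057, and without fructose library 1 it was 0.41 with an adjusted p of 0.071, both by edgeR. Nsdhl (ENSMUSG00000031349, chrX:72918557-72958514), a dehydrogenase of the same stage, had 64.7 and 68.4 CPM against 96.6 and 80.5 CPM. It rose 1.33-fold (log2 fold change 0.41, SE 0.098, edgeR adjusted p = 0.010), but the adjusted p was 0.11 without fructose library 1. Sc5d (ENSMUSG00000032018, chr9:42251595-42264256), the desaturase near the end of the pathway, had 7.86 and 4.66 CPM against 12.6 and 11.02 CPM. The control libraries were far apart relative to this low level, and Sc5d rose 1.88-fold (log2 fold change 0.91, SE 0.21, edgeR adjusted p = 0.0099), with 0.59 when control library 2 was left out.

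The other 6 genes of this stage were not called. Squalene synthase, Fdft1, had 110.1 and 83.3 CPM in the control libraries against 82.8 and 82.7 CPM in the fructose libraries. Only control library 1 stood apart, and the log2 fold change of Fdft1 was -0.23 (SE 0.11, edgeR adjusted p = 0.16). The value rested on the control library kept, at -0.014 without control library 1 (edgeR adjusted p = 0.94) and -0.41 without control library 2 (edgeR adjusted p = 0.00046). The reductase Tm7sf2 and the isomerase Ebp had log2 fold changes of -0.22 and -0.18, while Msmo1, a methylsterol oxidase, and Dhcr7, the reductase of the last step, had 0.12 and 0.23. Hsd17b7, a sterol ketoreductase with the lowest level of this stage, had 3.22 and 2.99 CPM against 4.86 and 4.25 CPM, which gave 0.55 (SE 0.23, edgeR adjusted p = 0.098). Genes called higher and genes not called thus stood next to each other along the pathway. Within each library, the ratio of Sqle to Fdft1 counts was 0.179 and 0.238 in the control libraries against 0.395 and 0.325 in the fructose libraries. The ratio of Idi1 to Mvk counts was 0.226 and 0.216 against 0.473 and 0.471. Neither ratio overlapped between the groups, and library scaling does not enter them. Each pair was chosen after values were seen, with a gene called higher over one not called. Their separation is therefore no evidence beyond the values of the single genes. With the trends of transcript length and GC content removed, the log2 fold changes were 0.65 for Idi1 and 0.24 for Mvk, closer together than the 1.01 and -0.085 before, and 0.61 for Sqle and -0.21 for Fdft1.

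Of the 3 genes for proteins that hold and escort SREBP, 1 was called higher and 1 lower, where 15.5% and 10.7% of all tested genes were. Insig1 (ENSMUSG00000045294, chr5:28071363-28078662), the retention protein that is itself a classic SREBP target, had 189.3 and 125.9 CPM in the control libraries against 267.7 and 227.4 CPM in the fructose libraries. The libraries did not overlap, although the control libraries were far apart, and Insig1 rose 1.57-fold (log2 fold change 0.65, SE 0.15, edgeR adjusted p = 0.0094). The log2 fold change was 0.39 without control library 2 and 0.97 without control library 1, called in both fits, whereas DESeq2 on all 4 libraries gave 0.64 with an adjusted p of 0.13. Its relative Insig2 had 13.3 and 13.9 CPM against 13.7 and 14.7 CPM, overlapping between the groups (log2 fold change 0.067, SE 0.13, edgeR adjusted p = 0.75). Scap (ENSMUSG00000032485, chr9:110333288-110384950) had 88.0 and 94.5 CPM against 72.9 and 75.03 CPM and fell to 0.810 of control (log2 fold change -0.30, SE 0.082, edgeR adjusted p = 0.019). Scap was the least stable of these calls, with an adjusted p of 0.053 without control library 2, 0.12 without fructose library 1 and 0.085 without fructose library 2. The ratio of Insig1 to Scap counts within a library was 2.15 and 1.33 in the control libraries against 3.67 and 3.03 in the fructose libraries. This pair put a gene called higher over a gene called lower and was chosen after values were seen. Its separation is no evidence beyond the values of Insig1 and Scap themselves.

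Then, transport, esterification and efflux were compared. Of these 6 genes, 2 were called higher and 1 lower, where 15.5% and 10.7% of all tested genes were. Abca1 (ENSMUSG00000015243, chr4:53030787-53159895) encodes the pump that loads cholesterol and phospholipid onto lipid-poor apolipoprotein A-I. It had 29.7 and 26.4 CPM in the control libraries against 68.8 and 80.4 CPM in the fructose libraries. Abca1 had the highest fold change of the set, 2.66-fold (log2 fold change 1.41, SE 0.11, edgeR adjusted p = 2.9e-05), and stood at the 97.8th percentile of the fold changes of all tested genes. Abcg1 (ENSMUSG00000024030, chr17:31057675-31117988), which passes cholesterol on to mature high-density lipoprotein, had 41.7 and 42.4 CPM against 31.4 and 34.7 CPM. The fructose libraries of Abcg1 were both lower, at 0.786 of control (log2 fold change -0.35, SE 0.095, edgeR adjusted p = 0.020), with -0.27 and an adjusted p of 0.17 without fructose library 1. The pumps therefore moved in opposite directions. The ratio of Abca1 to Abcg1 counts was 0.712 and 0.623 in the control libraries against 2.19 and 2.31 in the fructose libraries. As this pair was also chosen after values were seen, the ratio adds no evidence beyond the values of Abca1 and Abcg1.

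Macrophages also use ABCA1. The sum of 8 macrophage markers was 217.7 and 164.5 CPM in the control libraries against 164.6 and 173.6 CPM in the fructose libraries. Of the 8, 1 was called higher (Mrc1) and 2 lower (C1qa and C1qb), named here after their values were seen. Over all tested genes, 15.5% were called higher and 10.7% lower. None of the 8 was at 0, both fructose sums lay near the lower control value, and the part of macrophages in the level of Abca1 was not tested. Hepatocyte markers, from a tissue rich in sterol enzymes, summed to 0.776 to 1.017 CPM in the 4 libraries, with 3 of 6 at 0 in every library.

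Stard4 (ENSMUSG00000024378), a soluble carrier that moves cholesterol between membranes, had 8.55 and 7.49 CPM in the control libraries against 14.5 and 13.9 CPM in the fructose libraries. It rose 1.77-fold with tight libraries in both groups (log2 fold change 0.83, SE 0.15, edgeR adjusted p = 0.0027). Soat1, which stores cholesterol as esters, had 5.01 and 4.66 CPM against 7.03 and 6.04 CPM and was not called (log2 fold change 0.43, SE 0.19, edgeR adjusted p = 0.12). The lysosomal pair differed less. Npc2 had 457.4 and 443.2 CPM against 520.9 and 503.8 CPM (log2 fold change 0.19, SE 0.081, edgeR adjusted p = 0.11), and Npc1 had an overlapping 38.4 and 48.4 CPM against 39.8 and 42.1 CPM.

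Fold changes across all genes followed transcript length and GC content, so the sterol genes were also read with those trends removed. Over 12884 genes with an annotated transcript, Spearman's rho between the log2 fold change and length was 0.52, and between the log2 fold change and GC content it was -0.53. These are descriptions across genes, which share the libraries and are not replicates. The median log2 fold change was -0.28 in the shortest of 10 equal bins of genes and 0.45 in the longest, and 0.65 in the bin lowest in GC and -0.24 in the highest. The median length of the sterol genes, 3163 bases, was close to the 3161 bases of all tested genes, and their median GC content was 49.5% against 50.5%. Within the set, the 10 genes called higher had a median length of 3697.5 bases and a median GC content of 46.0%, against 2756 bases and 51.5% for the other 18. The transcript of Abca1, at 10262 bases, was the longest of the 28.

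**Figure D2:**
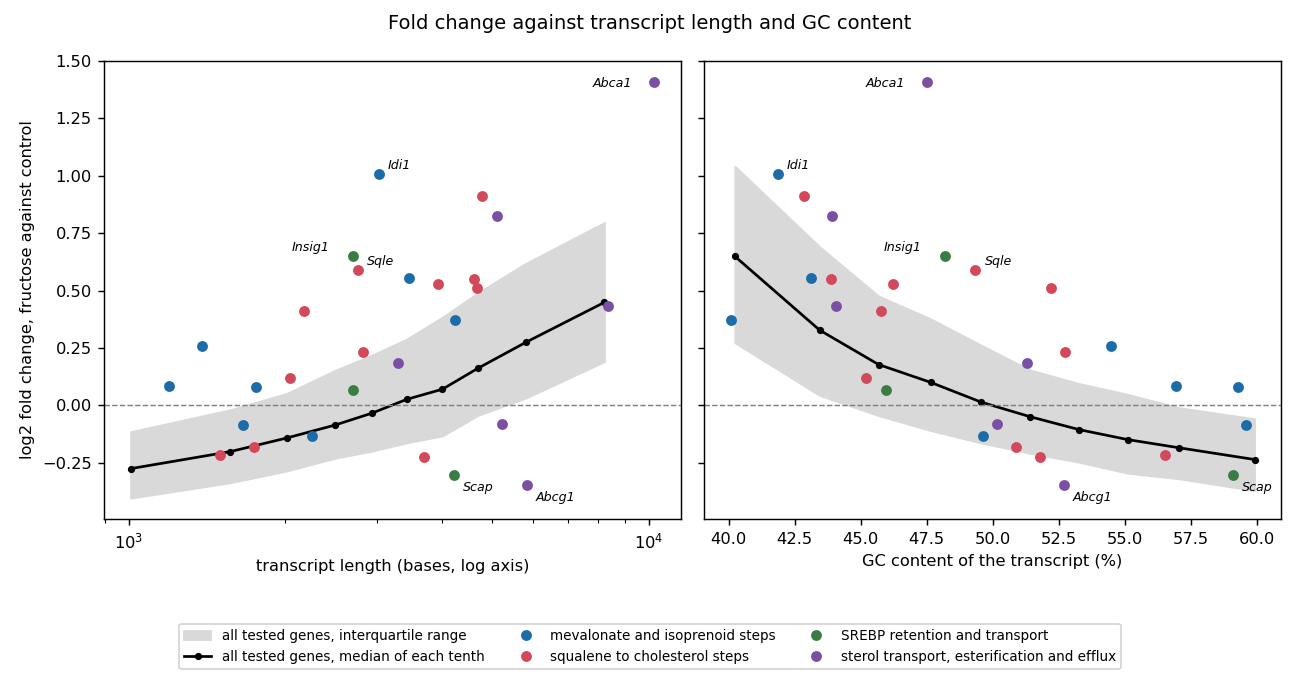
Log2 fold change, fructose against control, against transcript length in bases on a log axis (left) and GC content in percent (right), with the 28 sterol genes as points coloured by role, the median of each of 10 equal bins of all tested genes as a black line and the interquartile range in grey. The line rose from -0.28 to 0.45 with length and fell from 0.65 to -0.24 with GC content, and Abca1 lay above every part of the grey range in both panels.

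With both trends removed from each library, 7 of the 28 genes were called higher (25%), where 3.26% of all tested genes were, and 1 was called lower (3.57%), where 3.06% were. The median log2 fold change of the set was 0.24, against -0.0016 over all tested genes. Idi1, Sqle, Lss, Insig1 and Abca1 were called higher with and without the trends, at 0.65, 0.61, 0.46, 0.64 and 0.94 on the log2 scale once the trends were removed. Hmgcs1, Cyp51, Nsdhl, Sc5d and Stard4 kept a value above 0 and lost the call, with log2 fold changes of 0.24, 0.37, 0.37, 0.48 and 0.44. Fdps (log2 fold change 0.53, edgeR adjusted p = 0.0070) and Pmvk (0.42, edgeR adjusted p = 0.021) were called higher only with the trends removed. Abcg1 stayed called lower at -0.47 (edgeR adjusted p = 0.014), and Scap was not called at -0.21 (edgeR adjusted p = 0.16). By role, 3 of 8 genes of the mevalonate steps, 2 of 11 of the squalene to cholesterol steps, 1 of 3 of the SREBP group and 1 of 6 of the transport group were then called higher.

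**Figure D3:**
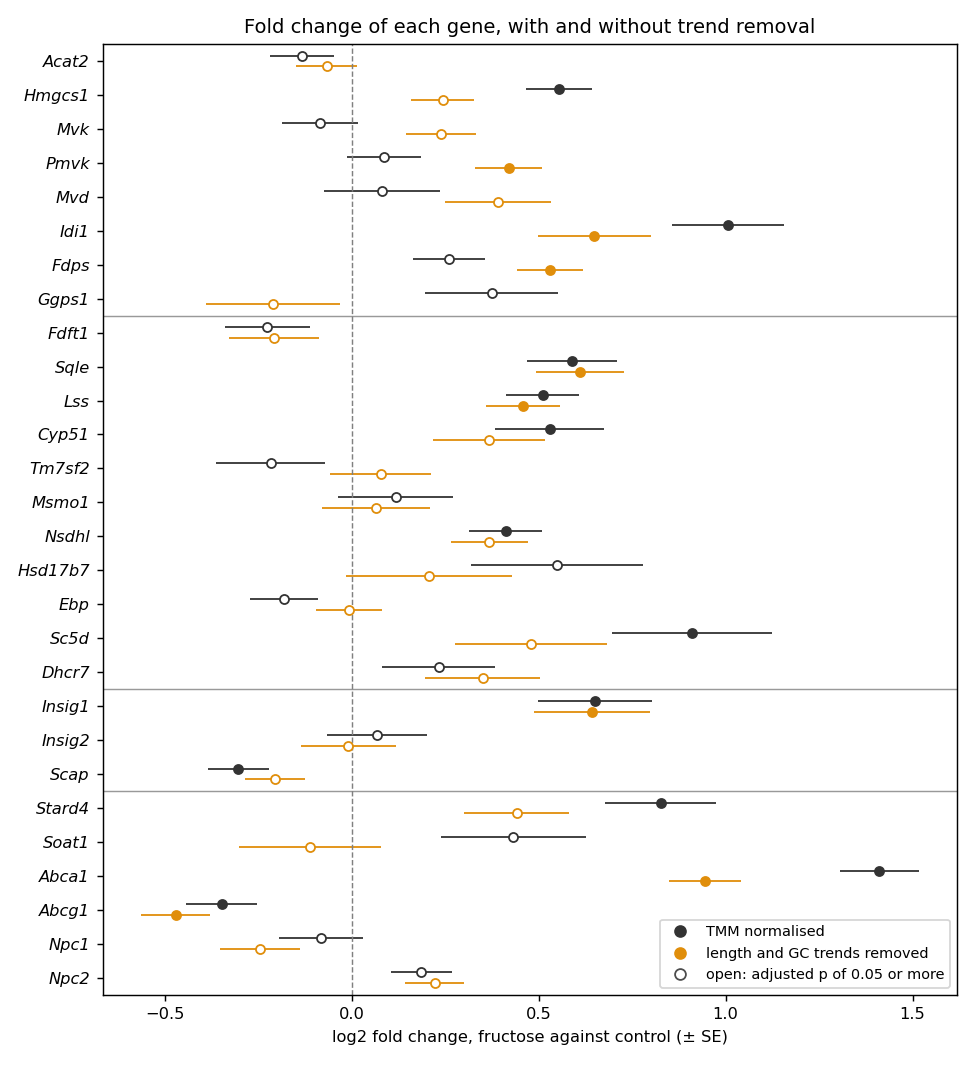
Log2 fold change of each of the 28 sterol genes, fructose against control, from the edgeR fit (black) and from the fit with both trends removed (orange), with bars of 1 SE and open points where the adjusted p was 0.05 or more, genes ordered by role. Idi1, Sqle, Lss, Insig1, Abca1 and Abcg1 have filled points in both fits, and Mvk, Ggps1, Tm7sf2, Insig2 and Soat1, none called in either, change sign between them.

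**Figure D4:**
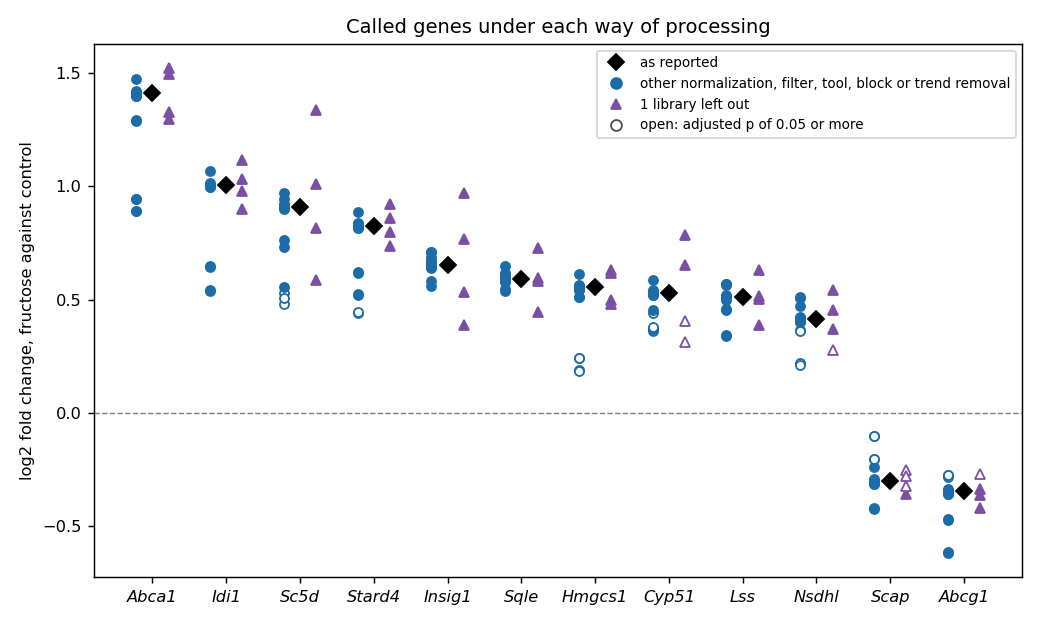
Log2 fold change of the 12 called sterol genes, fructose against control, as reported (diamonds), under 13 other processing settings (circles) and with 1 library left out (triangles), open where the adjusted p was 0.05 or more. All 12 kept their direction, and Abca1, Idi1, Sqle and Lss have no open point.

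Finally, 43 other genes of sterol regulation, uptake and the isoprenoid branch were read beside the set, of which 42 were tested. Of these, 2 were called higher and 6 lower, where 15.5% and 10.7% of all tested genes were, and the median log2 fold change was -0.13. With both trends removed, 0 were called higher and 2 lower (Lrp1 and Acat1), where 3.26% and 3.06% of all tested genes were, and the median was -0.11. Srebf1, the SREBP gene of fatty acid synthesis, had the highest level per kb of its list, with 1733 and 1437 CPM in the control libraries against 1190 and 1163 CPM in the fructose libraries. It fell to 0.742 of control (log2 fold change -0.43, SE 0.10, edgeR adjusted p = 0.010), with -0.35 and an adjusted p of 0.075 once both trends were removed. Srebf2, the SREBP gene most tied to cholesterol synthesis, had 73.1 and 67.7 CPM against 87.5 and 73.3 CPM (log2 fold change 0.19, SE 0.098, edgeR adjusted p = 0.17). Mbtps2, the protease that makes the second cut in SREBP, was the only gene of its list of 10 called higher (log2 fold change 0.81, SE 0.22, edgeR adjusted p = 0.019), at 2.90 and 3.22 CPM against 5.17 and 5.55 CPM, and had 0.17 with both trends removed.

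In the LXR and oxysterol list, 3 of 8 tested genes were called lower and 0 higher, where 10.7% and 15.5% of all tested genes were. The LXR genes Nr1h2 and Nr1h3 had log2 fold changes of -0.46 (SE 0.081, edgeR adjusted p = 0.0023) and -0.29 (SE 0.079, edgeR adjusted p = 0.020), and their partner Rxrb had -0.34 (SE 0.085, edgeR adjusted p = 0.012). With both trends removed these were -0.17, -0.019 and -0.10, and none was called. Nr1h3 had the highest level of the list, at 54.6 CPM per kb in control. The receptors and lysosomal hydrolases had 0 of 8 called, among them Scarb1, the high-density lipoprotein receptor and the highest per kb, at 374.1 and 341.4 CPM against 311.7 and 309.0 CPM (edgeR adjusted p = 0.091). With both trends removed, Lrp1, a large endocytic receptor, was called lower (log2 fold change -0.41, edgeR adjusted p = 0.013, against -0.039 before). The carriers of non-vesicular transfer also had 0 of 7 called, with Gramd1a, the highest per kb, at a log2 fold change of -0.20 (edgeR adjusted p = 0.11).

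The last list held 8 genes of the non-sterol isoprenoid branch and Acat1, a thiolase that lies outside it. Of these 9, 1 was called higher and 2 lower, Acat1 among the latter, where 15.5% and 10.7% of all tested genes were. Pggt1b, a subunit of the enzyme that attaches geranylgeranyl groups to proteins, had 4.64 and 2.55 CPM in the control libraries against 8.18 and 9.19 CPM in the fructose libraries. It rose 2.40-fold (log2 fold change 1.27, SE 0.25, edgeR adjusted p = 0.0041), and had 0.57 with both trends removed, not called. Fnta, the shared subunit of the farnesyl and geranylgeranyl transferases, fell to 0.843 of control (edgeR adjusted p = 0.047), and had a log2 fold change of -0.18 with both trends removed, not called (edgeR adjusted p = 0.23). Acat1, the mitochondrial thiolase of ketone body use, had 836.0 and 892.1 CPM against 699.8 and 740.3 CPM and fell to 0.833 of control (log2 fold change -0.26, SE 0.086, edgeR adjusted p = 0.042), and it was called lower with both trends removed as well, at -0.43.

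The annotation limits a few of these values. Exons of 6 genes of the set overlapped those of another gene in the table: Cyp51 with Akap9, Fdft1 with Ctsb, Ggps1 with Arid4b and Npc1 with Rmc1 on opposite strands, and Tm7sf2 with Vps51 and Fdps with Gm43738 on the same strand. The overlap was 166 bases for Cyp51, 774 for Fdft1 and 1124 for Fdps. How the counting treated strand and shared reads is not given in the sources used here, so the values of these 6 genes are less certain. Exons of Scap, Hmgcs1, Lss and Idi1 overlapped opposite-strand genes that are not in the table, by 985, 557, 381 and 323 bases. Their values share the limit of unknown strand handling.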

How the data were processed

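Per the study's methods and the labels, the authors filtered reads with fastp, mapped them to mm10 with Bowtie2 2.0.0.5 and TopHat2 2.0.0, assembled transcripts with StringTie 2.2.0 and deposited raw counts per gene. The counting setting and strand are not given in the sources used here. One table held all 4 libraries, and the 4 single-library files held the same values for all 22298 genes. Gene identifiers were matched to GENCODE vM21 (43 had no match), the longest protein-coding transcript gave length and GC content, and promoters came from RefSeq on GRCm38.p6.

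Counts were tested with edgeR 4.0.16 in R 4.3.3 (filterByExpr, TMM, quasi-likelihood test, fructose against control over 12888 genes, Benjamini-Hochberg adjustment at 0.05), after a check on simulated data. The SE of a log2 fold change was computed from the test's F statistic. CPM values used TMM-scaled library sizes, and CPM per kb divides them by transcript length. Library totals of 18542897 to 23645147 counts set the precision of a single gene: 3 counts correspond to 0.127 to 0.162 CPM. The counts of same-group libraries differed by more than sampling noise (chi-square per degree of freedom 13.1 for control and 8.45 for fructose), and the biological coefficient of variation was 8.52%.

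Alternatives were DESeq2 1.42.0 as test and as scaling, scaling by library size only, library sizes without mitochondrial and haemoglobin genes, a fit blocked on replicate number, no filter, a minimum of 10 counts per library, length and GC trends removed by lowess (span 0.3) as offsets, and each library left out. For both trends together, 5 alternating passes were used, a number set after seeing that a single pass left a trend. Genes were named if they belonged to the set, or, in the other pathway lists, if they were called or had the highest level (CPM per kb) of their list, and Lrp1 was added after its value was seen. The genes of the set, the lists and the tests were chosen with earlier results of these data known. The count ratios, the motifs and the 6 promoters printed were chosen after values were seen.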

Additional observations from a re-analysis of the deposited data

How the results depend on the processing

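Of the 12 called genes, 4 (Idi1, Sqle, Lss and Abca1) kept their call under all 13 alternative settings, 8 kept it whichever of the 4 libraries was left out, and 0 changed direction in any fit. The number called higher and the median of the set stayed within 1.5 times or within their spread throughout: leaving out a library gave 8 to 11 called higher and medians of 0.18 to 0.27. With a library left out, the lone library of its group is assumed to vary like the other group.

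The number called lower, 2, became 1 with library size only, 0 with the GC trend removed, 1 with both trends removed, 0 with the replicate block and the GC trend removed, 1 with the replicate block and both trends removed, and 0 to 2 with a library left out (0 without fructose library 1, 1 without fructose library 2). The number past the study's thresholds, 12, became 7 with the GC trend removed, with and without the replicate block, and 10 to 12 with a library left out. Over all genes, 3380 calls became 2061 with the length trend removed, 1897 with the GC trend, 814 with both, 2130, 2140 and 591 with the replicate block and the same removals, and 1692 (without fructose library 2) to 3925 with a library left out. Other pathway genes called, 8, became 4 with the GC trend removed, 2 with both trends removed, 2 with the replicate block and both trends removed, and 3 (without fructose library 2) to 11 with a library left out. Scaling by library size only raised the share of higher calls among all calls from 59.2% to 72.3%, with a median of 0.063 over all genes. The cause of these changes in count was not tested.

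Of the 16 genes not called, 10 changed sign in some fit. Mvk had log2 fold changes of 0.081 with the length trend removed, 0.12 with GC, 0.24 with both and 0.079, 0.12 and 0.24 with the block added. Ggps1 had -0.24 with GC and -0.21 with both (-0.24 and -0.21 with the block). Tm7sf2 had 0.078 with both (0.080 with the block), Msmo1 -0.10 with GC (-0.10), Soat1 -0.11 with both (-0.11), and Insig2 -0.12 with GC and -0.0091 with both (-0.12 and -0.0098). With a library left out, Mvk ranged from -0.19 to 0.021, Pmvk from -0.046 to 0.22, Mvd from -0.10 to 0.25, Msmo1 from -0.013 to 0.26, Dhcr7 from -0.026 to 0.55 and Npc1 from -0.24 to 0.095.

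The libraries share replicate numbers, but deviations of same-numbered libraries correlated at -0.052 across 12888 genes with only 2 pairs, so the numbers are not shown to pair the libraries. With the replicate block alone, 2117 genes were called higher and 1441 lower, and within the set only Fdps changed its call (log2 fold change 0.26, edgeR adjusted p = 0.048).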
